A study of Mus musculus with 4 samples.

Results

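The MHC class I presentation genes described here are *H2-K1*, *H2-D1*, *B2m*, *Tap1*, *Tap2*, *Tapbp* and *Nlrc5*, taken by symbol and not by any measured value. All 7 symbols were found among the 21926 genes counted. Their transcripts were read in single thymus cells of 1 WT mouse, which had *Eif4g2* flox/flox and no Cre, and of 1 *Eif4g2* cKO mouse, which had CD4-Cre besides *Eif4g2* flox/flox. Both mice were 5 weeks old, and the cells were unsorted. Both carried the floxed alleles, and the *Cd4*-*Cre* transgene acts from the DP stage on, so DN cells precede the stage of the deletion. eIF4G2 is a translation initiation factor, and the study asked what its loss does to thymocytes on the way from the DP to the SP stage.

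MHC class I molecules show peptides from inside the cell to CD8+ T cells. A heavy chain (*H2-K1* and *H2-D1* encode the classical ones) folds with the light chain β2-microglobulin (*B2m*) in the endoplasmic reticulum, where the TAP transporter (*Tap1*, *Tap2*) delivers peptides and tapasin (*Tapbp*) bridges TAP and the empty heavy chain. NLRC5 is a transactivator that acts on class I promoters together with RFX, CREB/ATF and NF-Y proteins, and interferons and NF-κB act through separate motifs upstream. Cortical DP thymocytes are known to carry little surface class I, and mature SP thymocytes carry more.

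In the GRCm38 genome 5 of the 7 genes lie in the MHC region of chromosome 17. *H2-K1* spans chr17:33996017-34000347 on the minus strand, and *Tapbp* (chr17:33915899-33929292), *Tap1* (chr17:34187553-34197225), *Tap2* (chr17:34203527-34216321) and *H2-D1* (chr17:35262730-35267499) lie on the plus strand. *B2m* (chr2:122147686-122153083) and *Nlrc5* (chr8:94434356-94527272) are also on the plus strand. *Nlrc5* is the long gene of the group, with a span of 92.9 kb, and the other 6 span 4.33 to 13.4 kb. *B2m* and *Tap1* overlap a counted gene on the other strand (*Patl2* and *Psmb9*) and *Tapbp* overlaps *Zbtb22* on its own strand. Heavy chain genes resemble one another, so the ends of their transcripts were compared: none of the 401 windows of 100 bases in the last 500 bases of the longest transcript of *H2-K1*, of *H2-D1* or of the other members occurred exactly in a transcript of another gene.

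The promoter sequences that the heavy chain genes and *B2m* share are shown here. The levels of these 3 genes moved together across classes of cells, with Pearson r from 0.93 to 0.95. *Tapbp* and *Tap1* were not set apart from them, with r of 0.95 and 0.91 to *H2-D1*. Whether the promoter sequences play a part in the levels was not tested. RefSeq promoters (GRCm38.p6, 250 bases before to 50 after the start site) were matched for 5 of the 7 genes, *H2-K1* with 2 start sites. In 3 of them a TGACG (the core of a cAMP response element) stood 20 bases before an ATTGG (an inverted CCAAT box), the arrangement of the X and Y boxes. The capitals mark these letters, each sequence being written along the strand of its gene.

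H2-K1: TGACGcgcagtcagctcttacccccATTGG

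H2-D1: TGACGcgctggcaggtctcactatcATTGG

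B2m: TGACGacctccggatctgagtccggATTGG

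The *H2-K1* stretch lies at chr17:34000359-34000388 (minus strand), from -41 to -12 of its upstream start site, the *H2-D1* stretch at chr17:35262993-35263022 (-101 to -72) and the *B2m* stretch at chr2:122147609-122147638 (-78 to -49). Of all 32817 promoters of this length, 31 (0.0945%) held this spaced pair on either strand, whereas ATTGG alone stood in 37.4% and TGACG alone in 20.8%. The spacing searched for, 20 bases, was that of *H2-K1*, *H2-D1* and *B2m*, and no other spacing was counted. The promoters of *Tap1* and *Tapbp* held no such pair. RefSeq and GENCODE start sites differ for 2 of these genes. The *H2-D1* stretches lie inside the GENCODE span given above, as does the searched *Tapbp* promoter, which begins at chr17:33919228. The bases before the GENCODE start of *Tapbp* were not searched.

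Farther upstream the same 3 promoters held an NF-κB type motif next to an interferon response type motif. In *H2-K1* and *H2-D1* the first capitals mark the NF-κB type motif and the last ones GAANNGAAA read on the opposite strand. In *B2m* the first capitals mark the interferon response type motif and the last ones the NF-κB type motif.

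H2-K1: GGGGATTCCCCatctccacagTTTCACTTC

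H2-D1: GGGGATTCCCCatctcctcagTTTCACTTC

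B2m: GAAACTGAAAatGGGAAAGTCCC

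These stretches lie at chr17:34000429-34000458 (minus strand), chr17:35262923-35262952 and chr2:122147548-122147570. On either strand, the NF-κB type letters of *H2-K1* and *H2-D1* were found in 10 of all promoters (0.0305%) and those of *B2m* in 23 (0.0701%). GAANNGAAA was found in 7.52%, and the form in *B2m*, with 1 more A before the N letters, in 3.43%. The order of the motifs was reversed between the heavy chain promoters and the *B2m* promoter. Each NF-κB type string searched for was an exact run of 11 letters that these promoters hold. Its low share over all promoters is therefore no evidence of a special motif. A match of letters is a description and not a measured binding site.

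**Figure D1:**
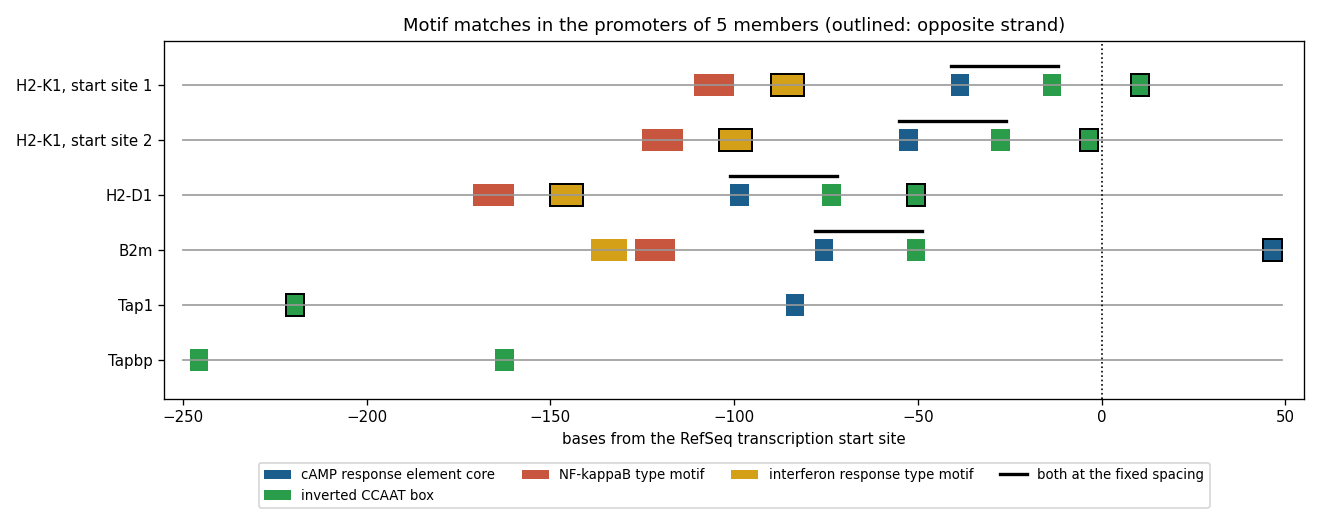
Motif matches along the RefSeq promoters of 5 members (x axis: bases from the transcription start site; 1 line per start site; outlined boxes: opposite strand; black bars: TGACG and ATTGG at the 20-base spacing). The spaced pair stands in the promoters of *H2-K1*, *H2-D1* and *B2m*, with the upstream motif pair farther from the start site in each.

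For the measurements, unique molecular identifiers (UMIs, 1 per captured transcript) of a gene were summed over the cells of a class and scaled to all UMIs of that class in the same library (CPM). The WT library had 18355050 UMIs over 6014 barcodes, of which 6012 were kept as cells. The *Eif4g2* cKO library had 18056277 UMIs over 4335 barcodes, all kept. Classes came from clusters named by markers, with the 7 genes and the pathway genes below, except the class II genes, left out of the clustering: DN-like (101 WT and 127 cKO cells), cycling-like (974 and 1304), DP-like (3379 and 2093), early post-selection-like (949 and 686), mature SP-like (449 and 82), NKT or γδ T-like (49 and 14), antigen-presenting-like (67 and 25) and erythroid-like (44 and 4). The DP-like class was held mostly by cluster 0 in WT (3195 of its cells) and by cluster 1 in cKO (1855), and the cycling-like class mostly by cluster 5 in WT (514) and cluster 3 in cKO (757). There was 1 library per genotype, so no comparison carries a test, and every interval is a 95% interval for counting error only. Both mice are labelled female, but the WT library held 2542 UMIs of 3 Y-linked genes and the cKO library 1, so genotype cannot be told apart from sex or from the single mouse. *Eif4g2* itself stood at 223 CPM in WT and 274 CPM in cKO, and a tag near the 3′ end does not show whether a floxed exon was lost.

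Across thymocyte stages, the heavy chain genes and *B2m* were high in DN-like cells, lowest in DP-like and cycling-like cells, and highest in mature SP-like and innate-like T cells. In mature SP-like against DP-like cells, 6 of the 7 genes were higher by more than 1 on the log2 scale in WT, where 7.15% of the 8808 genes with at least 50 UMIs were. In cKO 5 of 7 were, against 3.75% of 7230 genes. Member counts here and below take all 7 genes, while the shares over all genes leave out genes under 50 UMIs. *Nlrc5* was under 50 UMIs in this cKO comparison, and without it 4 of the other 6 were higher. None of the 7 was lower by more than 1 in WT (24.4% of all genes) and 1 was in cKO (29.6%). The median log2 ratio of the 7 genes was 2.69 in WT and 2.22 in cKO, beside medians over all genes of -0.53 and -0.57. *Tap2* was the exception, being lower in mature SP-like than in DP-like cells in both libraries. Against DN-like cells, 5 of 7 genes were higher in mature SP-like cells of WT by more than 1 (11.6% of 6087 genes) and 4 of 7 in cKO (7.04% of 3039), or 3 of the 6 with at least 50 UMIs.

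**Figure D2:**
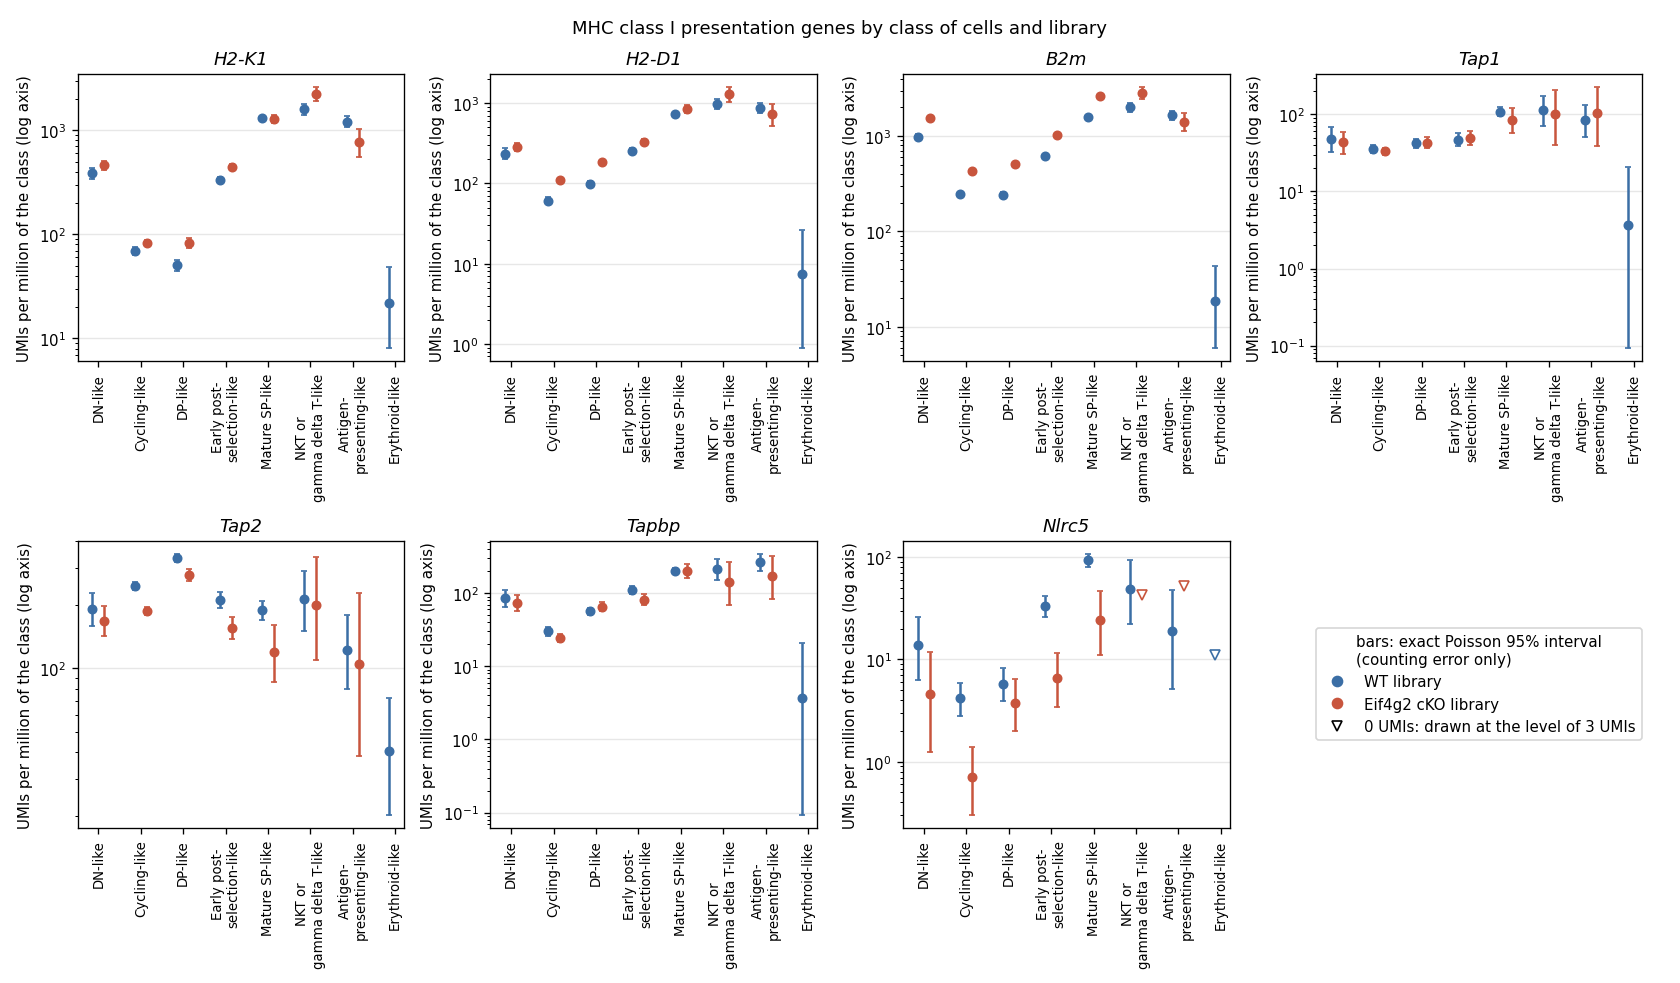
CPM of each member (y axis, log scale) in each class of cells (x axis) for the WT and *Eif4g2* cKO libraries, with exact Poisson 95% intervals and open triangles where no UMI was counted; the 4 erythroid-like cells of cKO are not drawn. *H2-K1*, *H2-D1* and *B2m* dip at the cycling-like and DP-like stages, *Tap2* is highest in DP-like cells, and *Nlrc5* peaks in mature SP-like cells.

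*H2-K1*, the heavy chain of the K molecule, had the deepest trough among the heavy chain genes and *B2m*. It stood at 386 CPM (interval 339 to 436) in DN-like, 50.8 CPM (44.9 to 57.2) in DP-like and 1303 CPM (1253 to 1354) in mature SP-like cells of WT. In cKO these levels were 462 CPM (418 to 509), 82.5 CPM (73.2 to 92.6) and 1293 CPM (1180 to 1414). The mature level thus lay 4.68 (4.50 to 4.87) above the DP level on the log2 scale in WT and 3.97 (3.76 to 4.19) in cKO.

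*H2-D1*, the heavy chain of the D molecule, followed the same course with a smaller range. In WT it stood at 235, 98.0 and 738 CPM in DN-like, DP-like and mature SP-like cells, and in cKO at 285, 183 and 849 CPM. Its mature to DP ratio was 2.91 (2.77 to 3.06) on the log2 scale in WT and 2.22 (2.02 to 2.41) in cKO. The 2 heavy chains did not keep a fixed proportion. *H2-K1* made up 62.1% (57.2 to 66.9) of the UMIs of both genes in DN-like, 34.1% (30.8 to 37.5) in DP-like and 63.8% (62.3 to 65.3) in mature SP-like cells of WT. In cKO these shares were 61.9% (58.0 to 65.6), 31.1% (28.1 to 34.2) and 60.4% (56.9 to 63.8). The *H2-K1* share was therefore lowest in DP-like cells in both libraries, with an interval clear of those of the DN-like and mature SP-like classes.

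*B2m*, the light chain shared by all class I molecules, stood at 977 CPM in DN-like, 243 CPM in DP-like and 1571 CPM in mature SP-like cells of WT. In cKO it stood at 1543, 506 and 2616 CPM. When every cell was thinned to 1000 UMIs, a *B2m* UMI was found in 18.5% (17.2 to 19.8) of the WT and 35.8% (33.7 to 37.9) of the cKO DP-like cells. It was found in 75.3% and 95.1% of the mature SP-like cells, and in 0 of 44 erythroid-like cells of WT, which allows a share of up to 8.04%. Without thinning, the erythroid-like cells of WT held 5 *B2m* UMIs, or 18.4 CPM (5.98 to 43.0), a level far below that of DP-like cells.

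The genes of both subunits of the peptide transporter diverged. *Tap1*, which is transcribed from a promoter it shares with the immunoproteasome gene *Psmb9*, stood at 42.4 CPM in DP-like and 108 CPM in mature SP-like cells of WT, and at 42.8 and 83.9 CPM in cKO. Its mature to DP ratio was 1.35 (1.07 to 1.62) in WT and 0.97 (0.36 to 1.54) in cKO on the log2 scale. Its DN-like, DP-like and early post-selection-like levels lay between 42.4 and 49.5 CPM in both libraries, and their neighbours in order did not differ beyond counting error. *Tap2* ran the other way, with its highest level in DP-like cells of both libraries, 334 CPM (319 to 350) in WT and 277 CPM (260 to 295) in cKO. In cKO the next class in order, NKT or γδ T-like cells, did not differ beyond counting error. In mature SP-like cells it stood at 189 and 119 CPM, which is -0.82 (-0.99 to -0.66) and -1.22 (-1.69 to -0.78) relative to DP-like cells on the log2 scale. With all genes centred on a median ratio of 0, these 2 values were -0.30 and -0.66. The antigen-presenting-like cells had 122 CPM of *Tap2* in WT and 104 CPM in cKO, also below DP-like cells.

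*Tapbp*, the tapasin gene, behaved like the heavy chains on a smaller scale. It stood at 86.0, 56.5 and 202 CPM in DN-like, DP-like and mature SP-like cells of WT, and at 74.3, 65.7 and 203 CPM in cKO. The mature to DP ratio was 1.83 (1.62 to 2.05) in WT and 1.63 (1.23 to 2.01) in cKO.

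*Nlrc5*, the transactivator, was counted rarely but had a steep profile. WT had 31 UMIs (5.77 CPM) in DP-like, 74 UMIs (33.2 CPM) in early post-selection-like and 186 UMIs (93.8 CPM) in mature SP-like cells. The cKO library had 13 UMIs (3.76 CPM), 12 UMIs (6.60 CPM) and 9 UMIs (24.3 CPM). The mature to DP ratio was 4.02 (3.47 to 4.62) in WT and 2.69 (1.29 to 4.03) in cKO. In WT no other class reached the mature level, although the NKT or γδ T-like class, with 9 UMIs (48.9 CPM), did not differ from it beyond counting error.

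**Figure D3:**
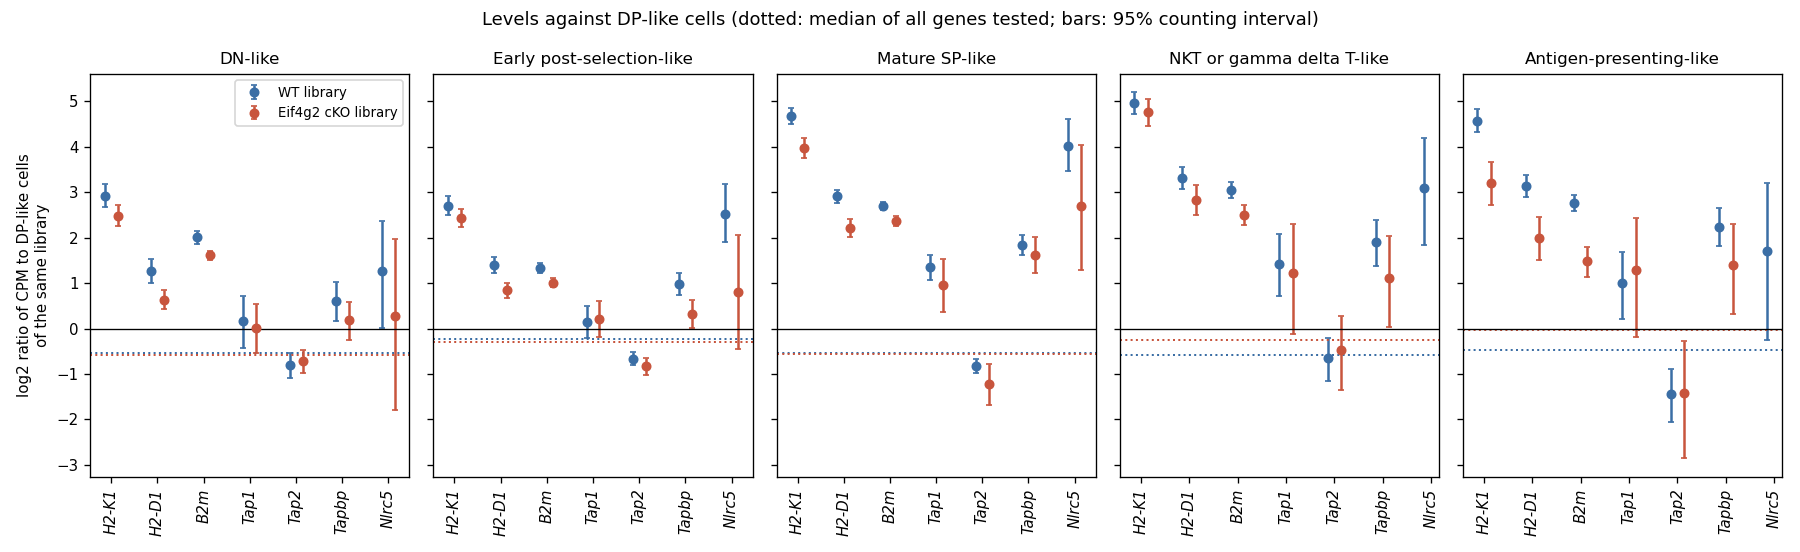
Log2 ratio of CPM to DP-like cells of the same library (y axis) for each member (x axis) in 5 classes, with 95% counting intervals and dotted lines at the median of all genes tested; *Nlrc5* is not drawn where it had 0 UMIs. *Tap2* lies below 0 in every panel in both libraries, and *H2-K1* is the highest point in each.

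In early post-selection-like cells as a whole, 4 of 7 genes were higher than in DP-like cells by more than 1 (log2) in WT (5.3% of 8794 genes) and 2 of 7 in cKO (2.77% of 7843). The class held 3 clusters, and no order among them was tested. Cluster 2, led by *Cd5*, *Tox* and *Egr1*, stood close to DP-like cells: the *H2-K1* level of WT was 65.8 CPM and that of cKO 116 CPM. None of the 7 genes was higher there by more than 1 (log2) in either library, where 3.07% and 2.52% of all genes were. Cluster 6, led by *Itm2a*, *Izumo1r* and *Ccnd2*, had *H2-K1* at 433 and 654 CPM and *B2m* at 774 and 1284 CPM, with 5 of 7 genes higher in WT (5.31% of all genes) and 4 of 7 in cKO (2.52%), or 3 of the 6 with at least 50 UMIs, and with none lower in WT (16.8%) and *Tap2* lower in cKO (24.2%). The fourth gene in cKO, *Nlrc5*, had 6 UMIs in the cluster and a ratio of 1.34 (-0.35 to 2.83). Cluster 10, led by *Tnfrsf9*, *Nr4a1* and *Ikzf2*, had the highest early values of *H2-K1* (687 and 703 CPM) and *B2m* (975 and 1304 CPM), with 5 of 7 genes higher in WT (7.05%), or 4 of the 6 with at least 50 UMIs, and 3 in cKO (3.61%), none lower in WT (26.1%) and 1, *Tap2*, lower in cKO (25.8%). In clusters 6 and 10 *H2-K1* lay 2.99 to 3.76 above DP-like cells on the log2 scale, while *Tap1* lay 0.01 to 0.65 above with each interval reaching 0. *Tap2* was already lower there, by -0.87 (-1.10 to -0.65) in cluster 6 of WT. The heavy chains and *B2m* thus stood higher in clusters in which the *Tap1* level could not be told from that of DP-like cells.

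DN-like cells were also above DP-like cells in part of the members. By more than 1 (log2), 4 of 7 genes were higher in WT (7.12% of 8441 genes), or 3 of the 6 with at least 50 UMIs, and 2 of 7 in cKO (5.35% of 7519). The ratio was 2.93 (2.67 to 3.18) for *H2-K1* and 2.01 (1.87 to 2.15) for *B2m* in WT, and 2.49 and 1.61 in cKO. *Tap1* did not differ beyond counting error, at 0.17 (-0.42 to 0.71) in WT. Cycling-like cells had none of the 7 genes higher by more than 1 in either library (9.89% of all genes in WT and 8.08% in cKO were). None was lower by more than 1 in WT (31.8% of all genes) and 2, *Tapbp* and *Nlrc5*, were in cKO (35.2%). *Tapbp* had log2 ratios of -0.91 (-1.17 to -0.66) in WT and -1.43 (-1.69 to -1.17) in cKO.

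Outside the conventional stages, NKT or γδ T-like cells, led by *Nkg7*, *Ly6c2* and *Ccl5*, carried the highest *H2-K1*, *H2-D1* and *B2m* levels of any class in both libraries, and 6 of 7 genes in WT (6.67% of 8250 genes) and 5 of 7 in cKO (5.99% of 7060) were higher than in DP-like cells by more than 1 (log2). *Nlrc5* in WT, with 9 UMIs, and *Tap1* in cKO, with 7 UMIs and an interval reaching 0, are among them. *H2-K1* stood at 1588 CPM (1411 to 1781) in WT and 2233 CPM (1896 to 2612) in cKO, above mature SP-like cells by 0.29 (0.11 to 0.46) and 0.79 (0.52 to 1.05) on the log2 scale. *B2m* was at 2012 and 2863 CPM, in cKO not beyond counting error from mature SP-like cells, and the *H2-D1* level in WT did not differ from that of antigen-presenting-like cells beyond counting error. The 14 cKO cells of this class had no *Nlrc5* UMI, a count of 0 that allows up to 42.9 CPM.

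Antigen-presenting-like cells (macrophage and dendritic cell genes such as *Lyz2* and *Apoe* led the cluster with class II genes) had 5 of 7 members higher than DP-like cells by more than 1 (log2) in both libraries, where 6.93% of 8280 genes were higher in WT and 7.23% of 7055 in cKO. Among them were *Nlrc5* in WT, with 4 UMIs and a ratio of 1.71 (-0.26 to 3.21), and *Tap1* in cKO, with 6 UMIs and a ratio of 1.28 (-0.18 to 2.44). *Tap2* was lower by more than 1 in both, where 29.7% of genes were in WT and 15.7% in cKO. The median of the members was 2.25 in WT and 1.40 in cKO, beside -0.47 and -0.02 over all genes. Against mature SP-like thymocytes of WT the members went both ways. In antigen-presenting-like cells *H2-K1* stood at 1210 CPM (1066 to 1367) and *B2m* at 1657 CPM (1488 to 1839), and the mature to antigen-presenting ratio was 0.11 (-0.08 to 0.30) for *H2-K1* and -0.08 (-0.24 to 0.09) for *B2m*. *H2-D1* was higher in the antigen-presenting-like cells, with a mature to antigen-presenting ratio of -0.23 (-0.45 to -0.002), and *Tapbp* had -0.41 (-0.81 to 0.02), whereas *Nlrc5*, with 186 and 4 UMIs, had 2.32 (0.94 to 4.21). *Tapbp* had its highest WT level here, 268 CPM (203 to 348), which did not differ from NKT or γδ T-like cells beyond counting error. The class II gene *Cd74*, the invariant chain, stood at 11347 CPM in the antigen-presenting-like and 20.6 CPM in the DP-like cells of WT. *Cd74* was kept in the clustering and was among the genes that named the class, so this difference follows from how the class was drawn. Erythroid-like cells of WT held few UMIs of the class I genes. They had 6 UMIs of *H2-K1* (22.1 CPM), 2 of *H2-D1*, 1 each of *Tap1* and *Tapbp* and none of *Nlrc5*, while *Tap2* had 11 UMIs (40.5 CPM). For *H2-K1* the interval of this level was 8.11 to 48.1 CPM, beside 50.8 CPM (44.9 to 57.2) in DP-like cells of WT. The DP-like level of *H2-K1* was higher beyond counting error, but the intervals of both levels overlapped.

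Over the 6 classes with at least 20 cells in both libraries (12 points, which share libraries and depth), the log2 levels of *H2-K1* had a Pearson r of 0.95 with *H2-D1*, 0.95 with *B2m*, 0.90 with *Tapbp* and 0.84 with *Tap1*. *Tap2* had negative values with all 6 others, from -0.83 with *B2m* to -0.07 with *Nlrc5*. Among 8849 other genes with at least 200 UMIs, the interferon-stimulated gene *Isg15*, the interferon-inducible GTPase gene *Irgm1*, *Cd9*, *Anxa6* and *Fxyd5* had the profiles most like the mean of the members, with r from 0.93 to 0.94. *Isg15* stood at 27.7 and 33.3 CPM in DP-like and at 536 and 687 CPM in mature SP-like cells of WT and cKO. These are descriptions of 12 points and carry no p-value.

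The rest of the class I pathway was followed with lists of genes. Among the immunoproteasome genes, which shape the peptides for class I, 4 of 5 were higher in mature SP-like than in DP-like cells of WT by more than 1 (log2) and 3 of 5 in cKO. Of all genes 7.15% in WT and 3.75% in cKO were. In WT the ratios ran from 0.41 for *Psmb8* to 2.33 (2.18 to 2.47) for *Psme2*, a subunit of the proteasome activator. In cKO *Psme2* had 1.29 (1.03 to 1.54) and *Psmb9* 1.28. *Psmb9*, the neighbour of *Tap1*, went from 76.6 CPM in DP-like to 281 CPM in mature SP-like cells of WT. The peptide loading genes of the endoplasmic reticulum lay close to 0, with medians of 0.25 in WT and -0.02 in cKO beside -0.53 and -0.57 over all genes: none of 7 was higher or lower by more than 1 in either library, with *Calr* (calreticulin) highest at 0.98 in WT and *Uggt1* lowest at -0.69. By more than 1, 24.4% of all genes were lower in WT and 29.6% in cKO.

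The other heavy chain genes went in both directions. Of 14 such genes in the files, 8 had at least 50 UMIs in WT, of which 4 were higher and 3 lower in mature SP-like than in DP-like cells by more than 1 (7.15% and 24.4% of all genes), with a median of 1.07. In cKO 6 had enough UMIs, of which 2 were higher and 2 lower (3.75% and 29.6%), with a median of -0.10. *H2-Q7*, a Qa-2 gene of a family of close copies whose reads can be shared, had 17 UMIs in DP-like and 438 in mature SP-like cells of WT, a log2 ratio of 6.13 (5.43 to 6.92). In contrast, *H2-Q2*, *Mr1* and *Cd1d1* were highest in DP-like cells. *Mr1*, which presents vitamin metabolites to MAIT cells, had 422 UMIs (78.5 CPM) in DP-like and 19 (9.58 CPM) in mature SP-like cells of WT, and 223 (64.5 CPM) and 2 (5.41 CPM) in cKO. *Cd1d1*, which presents lipids to NKT cells, had a mature to DP ratio of -1.74 (-2.34 to -1.18) in WT and -0.66 (-1.69 to 0.22) in cKO. In WT *Tap2* thus shared its direction with *Mr1*, *Cd1d1* and *H2-Q2* and not with the classical heavy chains.

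Of the factors that act on class I promoters, *Irf1*, an interferon-regulated activator, was the only one of 10 with enough UMIs that was higher by more than 1 in mature SP-like cells, at 1.91 (1.62 to 2.21) in WT and 1.36 (0.55 to 2.11) in cKO. *Creb1* was lowest in WT at -1.16 and *Rfxank*, a subunit of the RFX complex, in cKO at -2.10 with 3 mature UMIs. By more than 1, 3 of the 10 were lower in WT and 5 in cKO, where 24.4% and 29.6% of all genes were. Of all genes 7.15% and 3.75% were higher. The median of these 10 genes was -0.68 in WT and -0.85 in cKO, beside -0.53 and -0.57 over all genes.

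Since *Ifi27l2a* and *Ifit1* were among the leading genes of the mature SP-like cluster, its cells were split by UMIs of 13 interferon-stimulated genes in 1000 UMIs per cell. This list summed to 3080 CPM in mature SP-like and 229 CPM in DP-like cells of WT, and to 3152 and 264 CPM in cKO. The mature cells with 0 such UMIs (80 in WT, 24 in cKO) had *H2-K1* at 1220 CPM in WT and 1115 CPM in cKO, far above the DP-like levels. A count of 0 in 1000 UMIs does not mean that a cell had no such transcripts. Cells with 2 or more such UMIs (289 and 45) had 1399 and 1396 CPM. On the log2 scale the members of the second group stood above the first by a median of 0.18 in WT and 0.78 in cKO, beside 0.00 and -0.05 over all genes. By more than 0.5, 1 of 7 members was higher in WT, where 11.5% of all genes were, and 4 of 7 in cKO, where 9.03% were. Of these 4, *Tap1* (20 and 9 UMIs), whose ratio of 0.78 (-0.42 to 2.10) is the cKO median itself, and *Nlrc5* (8 and 1 UMIs) had intervals reaching 0. Of the 4 members with at least 50 UMIs there, 2 were past 0.5. *Tapbp* was the member past 0.5 in both libraries. It stood at 97.9 CPM (68.5 to 135) and 238 CPM (212 to 268) in WT, a ratio of 1.29 (0.78 to 1.83), and at 118 and 268 CPM in cKO, a ratio of 1.18 (0.34 to 2.10). *H2-D1* had a ratio of 0.22 (0.01 to 0.42) in WT and 0.86 (0.47 to 1.26) in cKO. The split is a range of counts and not a type of cell.

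**Figure D4:**
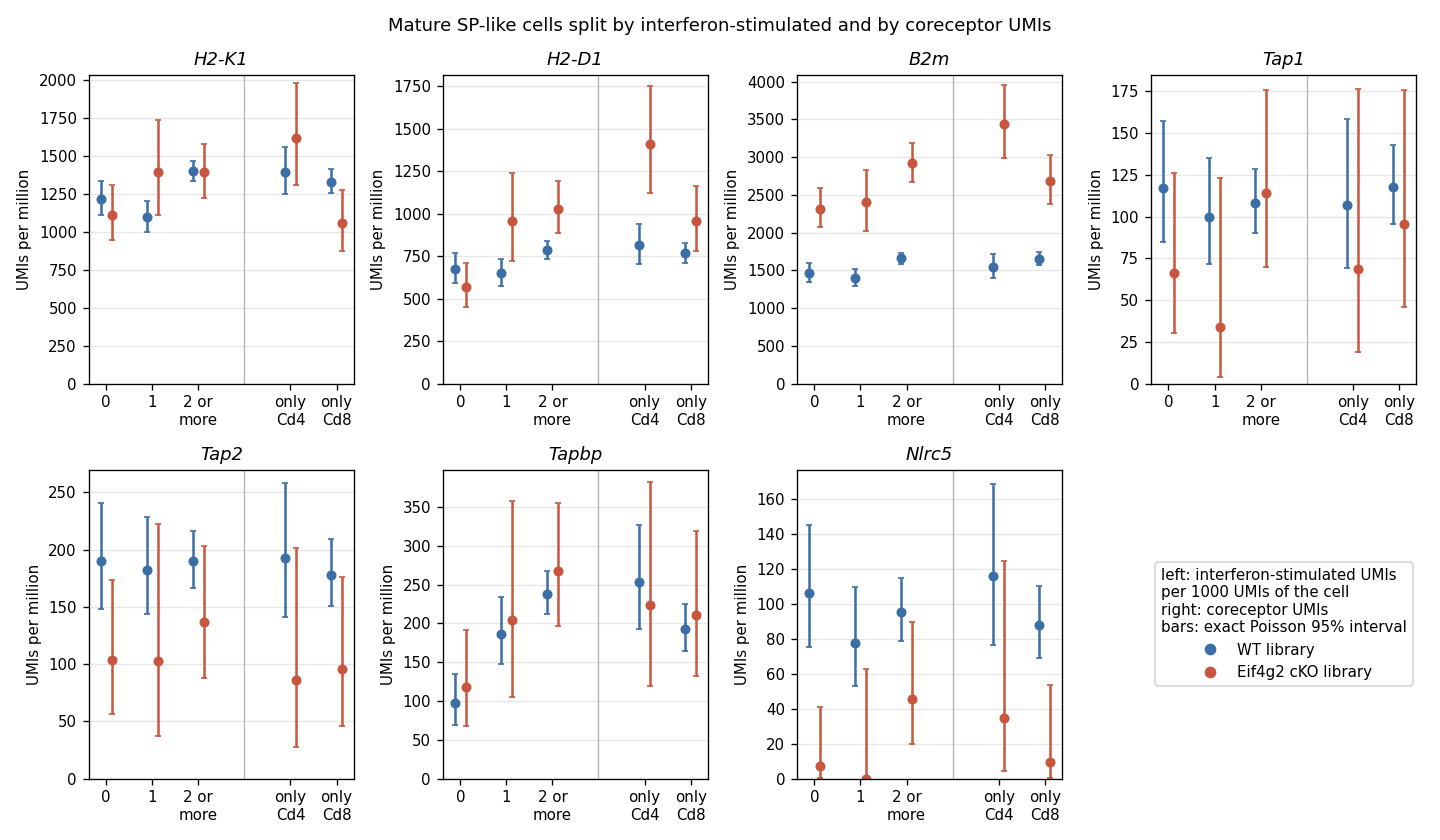
CPM of each member (y axis) in mature SP-like cells split by UMIs of 13 interferon-stimulated genes per 1000 UMIs (0, 1, 2 or more) and by coreceptor UMIs, for the WT and *Eif4g2* cKO libraries, with exact Poisson 95% intervals. *Tapbp* is higher with 2 or more interferon-stimulated UMIs in both libraries, and *B2m* is higher in cKO than in WT in each split.

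By coreceptor, mature SP-like cells of WT with only *Cd8a* or *Cd8b1* UMIs (185 cells) and those with only *Cd4* UMIs (64) had like levels: *H2-K1* stood at 1332 and 1398 CPM and *B2m* at 1653 and 1548 CPM, ratios of -0.07 (-0.25 to 0.11) and 0.09 (-0.07 to 0.27). None of the 7 members differed by more than 0.5 there, where 15.8% of all genes were higher and 13.0% lower. In cKO (24 and 19 cells) the ratio was -0.61 (-1.02 to -0.20) for *H2-K1*, -0.56 for *H2-D1* and -0.36 (-0.62 to -0.09) for *B2m*, lower in the cells with only *Cd8* UMIs. *H2-K1*, *H2-D1* and *Nlrc5*, which had 1 and 2 UMIs, were past 0.5 in that direction, where 16.9% of all genes were.

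Between the genotypes, *B2m* was the member with the most even difference. It was higher in *Eif4g2* cKO than in WT in all 6 classes of T lineage cells, by 1.06 (0.95 to 1.16) on the log2 scale in DP-like, 0.80 (0.73 to 0.88) in cycling-like, 0.73 (0.63 to 0.84) in early post-selection-like, 0.74 (0.63 to 0.84) in mature SP-like, 0.66 (0.52 to 0.80) in DN-like and 0.51 (0.25 to 0.76) in NKT or γδ T-like cells. In antigen-presenting-like cells it was -0.23 (-0.60 to 0.12). DN-like cells, which precede the stage at which *Cd4*-*Cre* acts, thus also showed the difference, and genotype cannot be told apart from a difference between the mice. *B2m* was also higher within DP-like cluster 0 alone, by 0.86 (0.64 to 1.08), and within cluster 1 alone, by 0.62 (0.31 to 0.95). In mature SP-like cells it was higher both with only *Cd4* UMIs (1.15) and with only *Cd8* UMIs (0.70). With each library clustered alone, the mature SP-like name went to 387 cKO cells in place of 82 and the mature *B2m* value was 0.07.

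**Figure D5:**
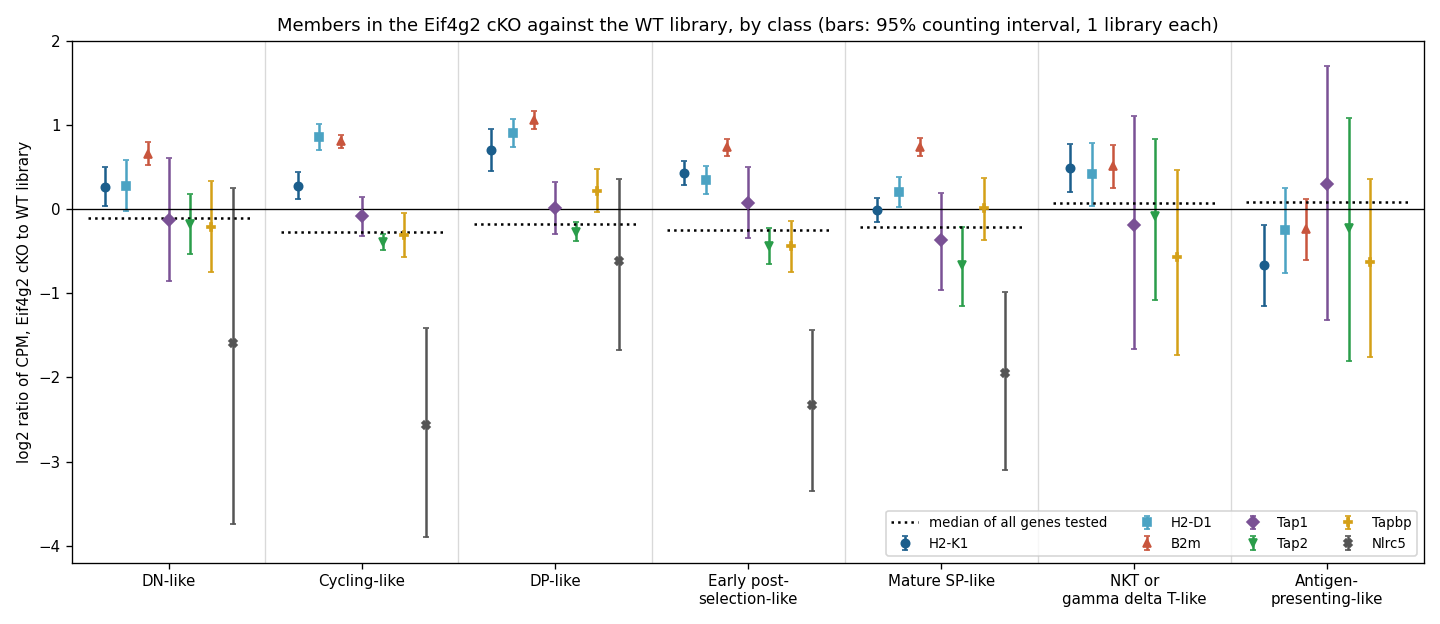
Log2 ratio of CPM of the *Eif4g2* cKO to the WT library (y axis) for each member in 7 classes (x axis), with 95% counting intervals, 1 library each and dotted lines at the median of all genes tested. *B2m* lies above 0 in the 6 T lineage classes, *Nlrc5* lies below 0 wherever it was counted in both libraries, and is left out where cKO had 0 UMIs; *H2-K1* lies below 0 in antigen-presenting-like cells.

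Both heavy chain genes were higher in cKO in DP-like cells, *H2-K1* by 0.70 (0.46 to 0.94) and *H2-D1* by 0.90 (0.73 to 1.07). With *B2m*, 3 of the 7 members were higher by more than 0.5 in this class, where 8.36% of 8880 genes were, and 1 (*Nlrc5*) was lower, as 29.2% of genes were. The median over the members was 0.22, beside -0.18 over all genes. Within cluster 0 alone *H2-K1* lay at 0.53 (-0.03 to 1.05) and within cluster 1 at 0.74 (-0.06 to 1.67), both reaching 0. *H2-D1* lay at 1.26 (0.94 to 1.56) within cluster 0 and at 0.26 (-0.22 to 0.78) within cluster 1, where WT had 38 UMIs, so its size depended on the cluster. In cycling-like cells *H2-D1* was higher by 0.85 (0.70 to 1.01) and *H2-K1* by 0.28 (0.12 to 0.43), and 2 of 7 members were past 0.5 (3.26% of all genes).

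In mature SP-like cells the heavy chains were near equal, at -0.01 (-0.15 to 0.13) for *H2-K1* and 0.20 (0.02 to 0.38) for *H2-D1*, which lay at -0.41 with each library clustered alone. Of the 7 members 1 was higher (*B2m*, beside 11.5% of 5536 genes) and 2 were lower (*Tap2* and *Nlrc5*, beside 35.6%), and the median was -0.01 (all genes -0.21). In early post-selection-like cells *H2-K1* was higher by 0.43 (0.28 to 0.57) and *H2-D1* by 0.35 (0.18 to 0.51). There *B2m* alone was past 0.5 upwards (7.2% of 7321 genes) and *Nlrc5* alone downwards (35.3%), with a median of 0.07 beside -0.25 over all genes. The heavy chain values depended on how the class was drawn. Within cluster 10 alone *H2-K1* lay at 0.03 (-0.21 to 0.28) and *H2-D1* at -0.14 (-0.46 to 0.18), within cluster 2 alone they lay at 0.82 and 0.66, and with each library clustered alone at -0.81 and 0.14. DN-like cells had *B2m* higher (9.88% of 3927 genes) and *Nlrc5*, with 9 UMIs in WT and 4 in cKO, lower (26.7%). The heavy chain intervals of the DP-like and mature SP-like classes as a whole did not overlap, but those within parts of the classes did: in mature SP-like cells with only *Cd4* UMIs *H2-D1* lay at 0.79 (0.40 to 1.17), near its DP-like value. Whether the classes differ was not tested.

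The transporter genes showed small differences. *Tap2* was lower in cKO in DP-like cells by -0.27 (-0.38 to -0.15), in cycling-like cells by -0.39 (-0.48 to -0.30), in early post-selection-like cells by -0.44 (-0.66 to -0.22) and in mature SP-like cells by -0.66 (-1.15 to -0.21). The medians over all genes in these classes were also negative, at -0.18, -0.27, -0.25 and -0.21. Under the alternatives *Tap2* ran from -0.33 to -0.09 in DP-like and from -1.16 to -0.11 in mature SP-like cells. *Tap1* lay between -0.36 and 0.30 in every class, with each interval reaching 0. *Tapbp* was lower in early post-selection-like cells, at -0.45 (-0.75 to -0.15), and in cycling-like cells, at -0.31 (-0.57 to -0.05). In mature SP-like cells it lay at 0.01 (-0.37 to 0.37), and at -0.81 with each library clustered alone.

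*Nlrc5* had a lower level in cKO in each class where both libraries had UMIs, with intervals reaching 0 in DN-like and DP-like cells. WT and cKO had 186 and 9 UMIs in mature SP-like cells, a log2 ratio of -1.95 (-3.10 to -0.99), 74 and 12 in early post-selection-like cells (-2.33, interval -3.35 to -1.44) and 31 and 8 in cycling-like cells (-2.57, interval -3.90 to -1.42). In DP-like cells the ratio was -0.62 (-1.67 to 0.36), which reached 0, and within cluster 0 alone it was 0.88 (-0.84 to 2.26) with 30 and 5 UMIs. Gene span moved with the genotype ratio over all genes: in mature SP-like cells the median was 0.11 for genes up to 5 kb, -0.54 for genes of 50 to 100 kb and -0.95 above 100 kb, and in DP-like cells 0.20, -0.49 and -0.75. *Nlrc5* at 92.9 kb lies in the span range of 50 to 100 kb, whereas *H2-K1* and *H2-D1* are under 5 kb. What part span has in these ratios was not tested. Relative to genes of like span, the median over the members was 0.16 in DP-like and -0.12 in mature SP-like cells.

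In antigen-presenting-like cells *H2-K1* was lower in cKO by -0.66 (-1.16 to -0.19), with 257 UMIs in WT and 44 in cKO, and *Tapbp* by -0.63 (-1.76 to 0.36). None of the 7 members was higher by more than 0.5 there (19.8% of 757 genes were) and these 2 were lower (21.5%). Of 6 class II genes with at least 50 UMIs, 5 were lower there too, with a median of -1.03 beside 0.08 over all genes. In NKT or γδ T-like cells *B2m* was past 0.5 upwards (21.5% of 596 genes) and *Tapbp*, with 39 UMIs in WT and 10 in cKO, downwards (18.1%).

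Of the other pathway genes in DP-like cells, 1 of 5 immunoproteasome and 1 of 7 peptide loading genes were higher in cKO by more than 0.5. None of 10 promoter factor genes was, where 8.36% of all genes were. In the same order, none, 1 and 2 were lower, where 29.2% of all genes were. Of the immunoproteasome genes *Psme2* was higher by 0.68 (0.52 to 0.85) and *Psmb9* was lowest at -0.08, and of the peptide loading genes *Pdia3* was highest at 0.51 and *Uggt1* lowest at -0.71. In mature SP-like cells *Psmb9* was at -0.68 (-1.07 to -0.30) and *Irf1* at -1.14 (-1.90 to -0.47), and *H2-Q7* had 438 UMIs in WT and 21 in cKO, a ratio of -1.96 (-2.67 to -1.33). Among promoter factors with at least 50 UMIs *Rfxap* was highest in both classes, at 0.49 and 1.06, and *Creb1* was at -0.98 and -0.89. The class II genes, counted at low levels in DP-like cells, were lower in cKO by more than 0.5 for 4 of 5 (29.2% of all genes), with *Cd74* at 20.6 CPM in WT and 5.50 CPM in cKO. That list moved with the antigen-presenting-like cells, which made up 1.11% of WT and 0.577% of cKO cells, and their part in this difference was not tested.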

How the data were processed

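Unsorted thymus cells of 1 WT and 1 *Eif4g2* cKO mouse were profiled by droplet 3′ tag sequencing (DNBelab C). The authors deposited filtered matrices of UMI counts per gene and cell, made with dnbc4tools (version 2.1.3 in the design text, 3.0 in the matrix header) on mm10 per the submitters' processing notes. The oligo libraries, which serve to join beads, held no values of their own. From the counts, cells with at least 50 genes and at most 10% mitochondrial UMIs were kept, and doublets were not removed. Of the names given to cells, which are running numbers and not barcode sequences, 1055 occurred in both libraries.

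Both libraries were clustered together (2000 variable genes, 30 principal components, 20 neighbours, Leiden resolution 1.0, seed 1; Python 3.11.15, leidenalg 0.10.2, igraph 0.11.9) without the members, the other class I lists and *Eif4g2*. A cluster was named X-like where at least 3 markers of a type were raised by 0.5 (log2). UMIs were summed per class and library and scaled to CPM. Differences were marked past 1 (stages) or 0.5 (genotypes) on the log2 scale, and the shares over all genes used those with at least 50 UMIs in the comparison. A gene at 0 UMIs was set to a floor of 3 UMIs, or to no difference where the floor lay past the other side. Intervals are exact Poisson for levels, exact binomial (Clopper-Pearson) for shares and exact conditional binomial for ratios, each at 95%. With 1 library per genotype no test was made.

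The text names all 7 members, the genes with the highest and lowest ratio of each pathway list, and the 5 genes of most similar profile (Pearson r of log2(CPM + 10), genes with at least 200 UMIs, classes of at least 20 cells in both libraries). *Psmb9* in mature SP-like and DP-like cells, *Irf1*, *Creb1*, *Cd1d1*, *Mr1*, *Cd74* and *H2-Q7* were described further after their values were seen. The members, lists and comparisons were chosen with earlier results of these data known. Gene positions are from GENCODE M21 (97.5% of the identifiers had the same version, that of *H2-D1* did not) and promoters from RefSeq. The scripts were tested on simulated data. Alternatives covered cell filters, cluster resolution, clustering of each library alone, marker rules per cell, scaling and thinning to 1000 UMIs.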

Additional observations from a re-analysis of the deposited data

Results flagged for a closer look

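*H2-K1* had opposite directions between the genotypes in 2 classes of cells. As a log2 ratio of cKO over WT it stood at 0.70 (0.46 to 0.94) in DP-like cells, with 285 and 273 UMIs, and -0.66 (-1.16 to -0.19) in antigen-presenting-like cells, with 44 and 257 UMIs. The DP-like class was held mostly by different clusters in the 2 libraries. Within cluster 0 alone *H2-K1* lay at 0.53 (-0.03 to 1.05) and within cluster 1 at 0.74 (-0.06 to 1.67), both reaching 0. In antigen-presenting-like cells 5 of 6 class II genes, from which the class was named, were also lower in cKO by more than 0.5 (21.5% of 757 genes were). Their median was -1.03, beside 0.08 over all genes. Each class had 1 library per genotype, and the difference was not tested.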

How the results depend on the processing

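There was 1 library per genotype, so intervals cover counting error only and no library could be left out. No paired analysis was possible because each genotype had 1 library. The alternatives by cluster, by coreceptor and by gene span were chosen after seeing the data. Alternative values of the medians over the members were set against a band, from the median of the members' lower counting limits to the median of their upper ones. Of 97 such values, 84 lay within the band and 13 outside. The band is not an interval of the median and can be wide. For antigen-presenting-like against DP-like cells in cKO it ran from 0.32 to 2.44. In WT the median of mature SP-like against DP-like cells was 2.58 with marker rules per cell, 2.96 when scaled to UMIs outside mitochondrial and ribosomal protein genes, 3.22 when centred on all genes, 2.81 after thinning, 2.26 with the H2 genes as 1 sum and 2.23 against DP-like cluster 1 alone. In cKO it ran from 1.58, with each library clustered alone, to 2.77: it was 1.68 in mature cells with only *Cd8* UMIs, 2.49 as a mean over cells, 2.47 outside mitochondrial and ribosomal protein genes, 2.77 when centred and 2.77 in mature cells with only *Cd4* UMIs. The genotype median was 0.53 in DP-like cluster 0 alone. In mature SP-like cells it was -0.63 with each library clustered alone, where 387 cKO cells had that name, and 0.20 when centred, and in early post-selection-like cells it ran from -0.32 to 0.32, so neither sign was settled. Against DP-like cells none of 339 alternative values of single members changed sign. Between the genotypes 25 of 280 did, in 10 of 21 ratios. Of ratios past 0.5 this was the *Nlrc5* one in DP-like cells, at 0.88 in cluster 0 alone with 5 UMIs in cKO. Of smaller ratios, *H2-K1* in early post-selection-like cells went from 0.43 to -0.81 and *H2-D1* in mature SP-like cells from 0.20 to -0.41, both with each library clustered alone, *H2-D1* in early post-selection-like cells from 0.35 to -0.14 in cluster 10 alone, and *Tapbp* in DP-like cells from 0.22 to -0.72 in cluster 0 alone. The main values of the other 5 lay within 0.5 of 0 with intervals reaching 0. Of these, *Tapbp* in mature SP-like cells went from 0.01 to -0.81 with each library clustered alone and to -0.35 with marker rules per cell. *B2m* between the genotypes ran from 0.62 to 1.24 in DP-like cells and from 0.07 to 1.15 in mature SP-like cells. Marker rules per cell gave no antigen-presenting-like value. The cause of these shifts was not tested.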
